A study of Mus musculus with 22 samples.

Results

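The genes described here are those of potassium channels, taken as every gene name of the deposited expression table that starts with Kcn, further letters and a digit. This gave 91 of the 34378 names in that table. They fall into 39 voltage-gated pore subunits, 15 inward rectifiers, 13 tandem-pore channels, 8 calcium- or sodium-activated channels and 16 auxiliary subunits.

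RNA was measured on 1-colour arrays in cardiac fibroblasts (CF) from CD1 mice of the aMHC-GFP genotype. MGT cultures were infected with a retrovirus that carries Mef2c, Gata4 and Tbx5 in 1 polycistronic transgene, a combination used to turn fibroblasts into induced cardiomyocyte-like cells (iCMs), and were harvested on days 3, 5, 7, 10 and 14. lacZ cultures were transduced with lacZ instead and harvested on the same 5 days, and untransduced CF stand for day 0. Each of these 11 groups had 2 arrays, 22 in all, and every group shares the strain and the genotype. The labels name no promoter for the transgenes and do not say that the 2 samples of a group came from separate cultures or animals, so the p-values cover the variation between the samples at hand alone, part or all of which may be technical.

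Potassium channels let potassium leave the cell and thereby set the resting potential and end the action potential. In cardiac muscle the transient outward current comes from Kcnd2, Kcnd3 and Kcna4 pores, delayed rectifier currents come from Kcnh2, Kcnq1 and, in mice, Kcna5, and the current that holds the resting potential comes from Kcnj2, Kcnj12 and Kcnj4. Kcnj3 and Kcnj5 together form the acetylcholine-gated channel of the atria, and Kcnj8 and Kcnj11 form ATP-sensitive channels with the sulphonylurea receptors Abcc8 and Abcc9.

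The cultures differ by 3 transcription factors, so the sequence upstream of members that rose is shown with the letters these factors are known to bind. RefSeq windows on GRCm38.p6, from 250 bases before to 50 bases after a transcript start, matched 67 of the 91 members and 16 of the 20 members that moved by at least 1 on the log2 scale. Both strands were searched for the MEF2 consensus, for the GATA factor letters (AGATAA) and for the core letters of T-box factors (AGGTGT). The 250 bases before the start are printed for Kcnc4, Kcnd2 and Kcnj5, examples of large rises whose windows held none of these motifs. Windows of Kcnf1, Kcnk1, Kcnh2 and Kcns3, which also rose, held none either and are not printed. The bases are also printed for Kcnj3 and Kcnj8, the 2 rising members with the T-box letters, which stand in capitals as they read on the printed strand. The printed bases lie at chr3:107458899-107459148 (minus strand) for Kcnc4, chr6:21215096-21215345 (plus strand) for Kcnd2, chr9:32344345-32344594 (minus strand) for Kcnj5, chr2:55435720-55435969 (plus strand) for Kcnj3 and chr6:142571615-142571864 (minus strand) for Kcnj8.
Kcnc4: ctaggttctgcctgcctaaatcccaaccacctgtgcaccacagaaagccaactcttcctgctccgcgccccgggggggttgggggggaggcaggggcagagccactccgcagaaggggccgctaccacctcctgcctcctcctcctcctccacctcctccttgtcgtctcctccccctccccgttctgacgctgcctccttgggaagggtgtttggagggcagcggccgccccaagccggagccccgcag
Kcnd2: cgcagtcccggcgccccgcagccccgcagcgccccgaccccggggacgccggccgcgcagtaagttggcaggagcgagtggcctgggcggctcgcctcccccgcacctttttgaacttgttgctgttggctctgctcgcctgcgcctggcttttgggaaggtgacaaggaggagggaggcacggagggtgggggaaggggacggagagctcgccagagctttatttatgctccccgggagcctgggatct
Kcnj5: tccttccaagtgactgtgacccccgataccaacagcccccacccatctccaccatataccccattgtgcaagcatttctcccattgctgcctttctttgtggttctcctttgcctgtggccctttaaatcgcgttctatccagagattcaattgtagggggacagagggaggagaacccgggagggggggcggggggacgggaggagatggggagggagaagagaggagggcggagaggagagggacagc
Kcnj3: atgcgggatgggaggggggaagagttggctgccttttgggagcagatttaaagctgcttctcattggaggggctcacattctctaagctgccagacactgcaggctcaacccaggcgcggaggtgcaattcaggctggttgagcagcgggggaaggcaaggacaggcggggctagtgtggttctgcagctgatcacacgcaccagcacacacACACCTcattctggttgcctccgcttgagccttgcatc
Kcnj8: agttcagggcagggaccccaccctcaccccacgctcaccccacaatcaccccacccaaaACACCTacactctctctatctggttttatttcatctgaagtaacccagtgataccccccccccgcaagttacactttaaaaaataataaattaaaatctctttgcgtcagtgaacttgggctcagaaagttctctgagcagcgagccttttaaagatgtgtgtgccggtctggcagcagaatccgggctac
The MEF2 consensus was in 0 of the 11 rising and 0 of the 5 falling members with a window, against 3.19% of all 32851 windows of 300 bases. The GATA letters were in 0 rising and 2 falling members (Kcnip4 and Kcnj15), against 11.2% of all windows. The T-box letters were in 2 rising members and in 1 falling member (Kcnt2), against 13.7% of all windows. A member was counted when any of its windows held the letters, whereas the shares are over single windows. These 16 members have 23 windows, and Kcnip4 held the GATA letters in 1 window and not in its other. No window held more than 1 match, so no motifs overlapped. A match is a run of letters, and its absence says only that the letters are not in that window.

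Levels below are log2 of the processed spot intensity minus the 75th percentile of the array, so that 0 is the brightness of a probe at that percentile, and levels of different genes are not compared. A spot flagged by the array software as well above background counts as detected. On that flag 79 of the 91 members were detected on at least 1 array, 28 on all 22 and 12 on none. A member was tested when a probe was detected on both arrays of at least 1 group. This held for 62 members, of which 26 were voltage-gated, 10 inward rectifiers, 10 tandem-pore, 5 calcium- or sodium-activated and 11 auxiliary. Of the 29 others, 17 were detected somewhere, each on at most 4 arrays. Among those not tested are Kcnj2, a main pore of the cardiac resting current, and Kcne1 and Kcne2, accessory subunits of delayed rectifiers. Some tested members passed this filter through 1 vector alone. Kcnd2, Kcnf1, Kcnj3 and Kcnab3 are examples that passed through MGT groups, and Kcnc2 and Kcnip4 through lacZ groups. Calls, p-values and the separation of arrays of such members are not independent of the filter.

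Between 48.42% (lacZ day 14 replicate 2) and 70.95% (MGT day 14 replicate 1) of spots were well above background on an array. The 75th percentile of lacZ day 14 replicate 2 was 729.0, against 1285.0 or more elsewhere. Replicates differed most in lacZ day 14 (median absolute difference 0.327). The dimmest detected level of an array lay between -6.66 and -4.18 and was lowest on the 2 MGT day 14 arrays. On both MGT day 14 arrays 57 members were detected, against 32 on both lacZ day 14 arrays. Of all spots, 70.95% and 68.9% were well above background on these MGT arrays, and 55.22% and 48.42% on these lacZ arrays. Day 3 and day 5 arrays of both vectors share slide 1, and day 7 and day 10 arrays share slide 2. Untransduced and lacZ day 14 arrays share slide 3 and MGT day 14 arrays lie on slide 4, so on day 14, and in any change up to it, slide and vector cannot be told apart. All 6 cardiomyocyte markers were higher in MGT (summed level 306 to 775 in MGT, 12.5 to 56.5 in lacZ and 14.8 to 16.6 on day 0, in multiples of the 75th percentile). All 6 fibroblast markers were lower (156 to 428 in MGT, 449 to 771 in lacZ and 436 to 440 on day 0). Skeletal muscle markers were higher in 4 of 5 (31.4 to 41.8 in MGT and 11.3 to 36.5 in lacZ), and endothelial markers were lower in 4 of 5 (5.57 to 9.61 in MGT and 7.47 to 13.9 in lacZ). In such bulk samples fewer cells of a type and less RNA per cell cannot be told apart, and the part of these cell types in the channel results was not tested.

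The main comparison asks how the 3 factors changed channel transcripts over the whole course. Averaged over the 5 days, 19 of the 62 tested members were higher in MGT, 23 were lower and 20 did not pass an adjusted p of 0.05 (limma, Benjamini-Hochberg over all genes tested). These are 30.6% and 37.1% of the tested members, against 22.2% higher and 35.6% lower among all genes. The median difference was -0.05 over the members and -0.07 over all genes. Differences of at least 1 on the log2 scale were called higher in 13 members and lower in 7, against 5.26% and 4.11% of all genes. With the percentile taken over probes detected on every array, all genes split into 7904 higher and 7405 lower, against 6104 and 9802 in the setting used here, and the members into 23 and 22. Dim signals also bear on size. With every level below -4.18, the highest of the array floors, raised to it, 6 of the 13 rises stayed at 1 or more (Kcnc4, Kcnd2, Kcnh2, Kcnj5, Kcnj10 and Kcnmb4) and 3 of the 7 falls did (Kcnab1, Kcnj15 and Kcnt2).

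By role, voltage-gated pores had 11 higher and 7 lower of 26, inward rectifiers 4 higher and 3 lower of 10 and tandem-pore channels 2 higher and 4 lower of 10. Calcium- and sodium-activated channels had 0 higher and 3 lower of 5, and auxiliary subunits 2 higher and 6 lower of 11. Within slide 1, 17 members were higher and 13 lower (16.0% and 21.4% of all genes), within slide 2, 18 and 15 (16.3% and 26.2%), and over days 3 to 10, 20 and 20 (20.0% and 31.3%). All 10 MGT arrays lay above all 10 lacZ arrays in 9 members (Kcna1, Kcnc4, Kcnd2, Kcnf1, Kcnh2, Kcnj5, Kcnk1, Kcnmb4 and Kcns3), against 4.14% of all genes. They lay below in 5 members, among them Kcnab1, Kcnip4, Kcnj15 and Kcnt2, against 2.98% of all genes. Kcnd2 and Kcnf1 met the detection filter through MGT groups alone, and Kcnip4 through lacZ groups alone. Their places in these counts are therefore not independent of the filter.

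**Figure D1:**
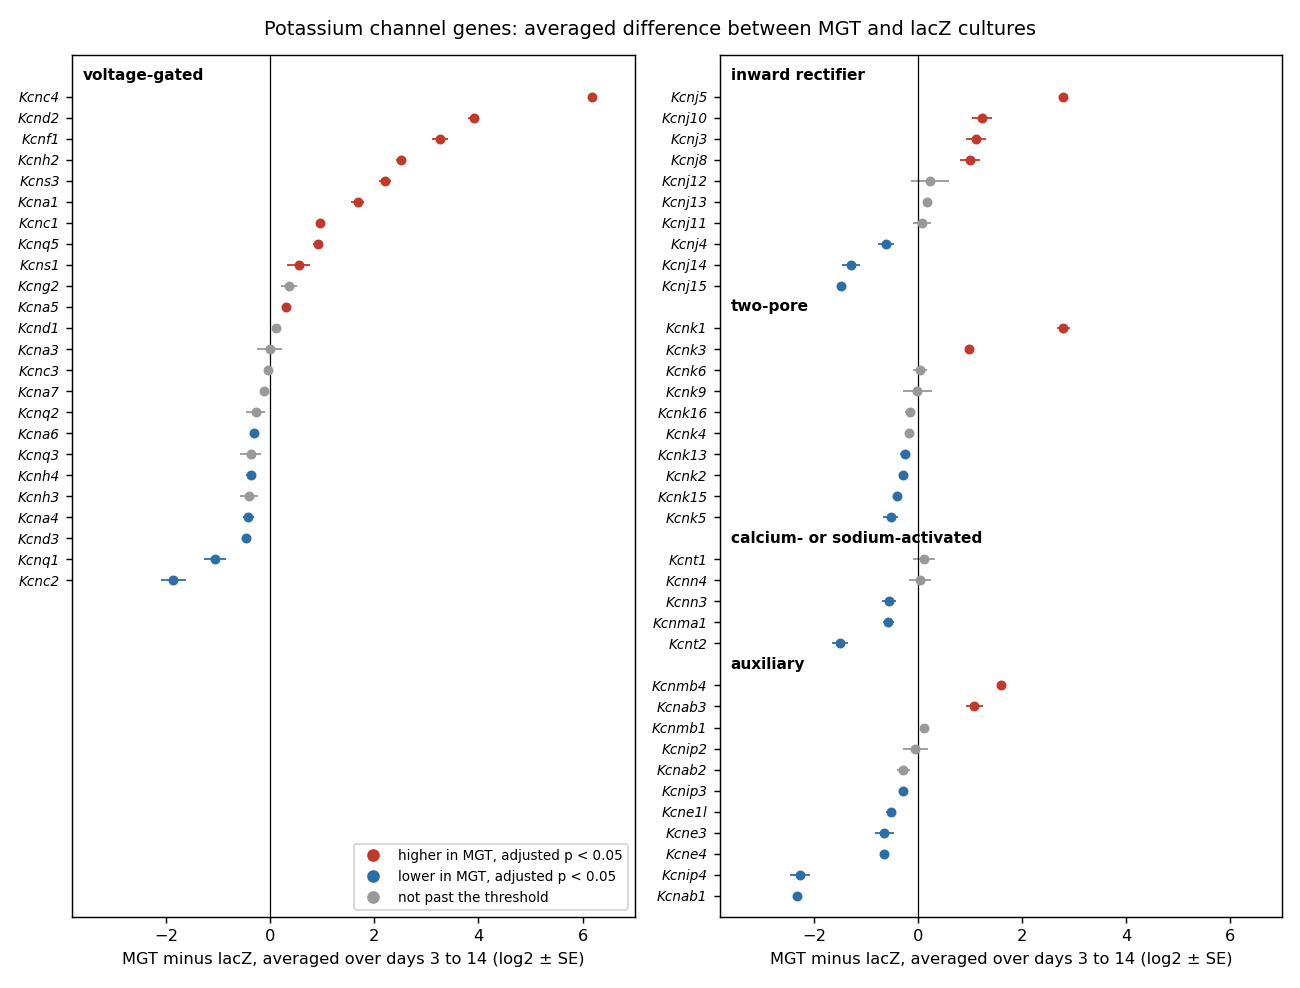
Averaged MGT minus lacZ difference (log2, with standard errors) of 60 tested potassium channel genes by channel class. Each gene is drawn by its brightest probe and at its measured difference, also where a vector was not well above background. On that scale Kcnc4 stands highest at 6.18 and Kcnab1 lowest at -2.33.

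Kcnc4 encodes a fast voltage-gated pore of the Shaw family and had the largest difference of the tested members by the brightest probe of each gene. Its probe lies at chr3:107241564-107241623 on mm9. In MGT it read 0.82 and 0.91 on day 3, 1.67 and 1.67 on day 5, 2.40 and 2.56 on day 7, 2.56 and 2.75 on day 10, and 2.64 and 2.56 on day 14. In lacZ it read -4.03 and -3.94 on day 3, -3.90 and -3.83 on day 5, -3.92 and -4.22 on day 7, -4.19 and -4.24 on day 10, and -4.72 and -4.29 on day 14, with -4.18 and -4.14 on day 0. Every MGT array lay far above every lacZ array, and the lacZ arrays lay within 1 unit of day 0. The averaged difference was 6.18 ± 0.058 (SE, adjusted p = 1.07e-16), a 72.5-fold difference, with 5.19 within slide 1 and 6.71 within slide 2.

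Kcnd2, the Shal pore of the fast transient outward current in mouse ventricle, was detected on all 10 MGT arrays and on 0 lacZ arrays. In MGT it read -4.30 and -4.07 on day 3, -3.19 and -3.21 on day 5, -1.66 and -1.84 on day 7, -1.96 and -2.14 on day 10, and -2.45 and -2.81 on day 14. The lacZ arrays read -7.18 to -5.99, all of them not well above background, as were the day 0 arrays (-7.25 and -7.54). The groups did not overlap. The averaged difference was 3.90 ± 0.113 (SE, adjusted p = 4.72e-12). As lacZ gives only a bound, MGT was at least 5.10-fold higher, set against the dimmest detected level of each lacZ array or the probe's own level, whichever was higher. Kcnd3, the other Shal pore of the heart, was lower in MGT, at -4.17 to -3.40 (median -3.93), against -3.98 to -2.72 in lacZ (median -3.39). Its groups overlapped, and the difference was -0.46 ± 0.058 (SE, adjusted p = 1.24e-05), a call lost in the authors' deposited table (-0.08, adjusted p = 0.669 in a limma fit).

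Kcnh2 encodes the pore of the rapid delayed rectifier and was detected on 10 MGT and 6 lacZ arrays. In MGT it read -2.35 and -2.35 on day 3, -2.04 and -2.18 on day 5, -0.98 and -1.06 on day 7, -1.04 and -1.29 on day 10, and -1.44 and -1.58 on day 14. In lacZ it read -2.85 and -2.76 on day 3, -3.52 and -4.20 on day 5, -4.02 and -3.97 on day 7, -4.37 and -4.78 on day 10, and -5.29 and -5.65 on day 14, with -4.28 and -4.15 on day 0. The groups lay close together on day 3 and apart on every later day. The averaged difference was 2.51 ± 0.087 (SE, adjusted p = 2.83e-11), and on day 14 MGT was at least 8.85-fold higher.

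The silent subunits Kcnf1 and Kcns3, which form no channel alone and modify other pores, also rose. Kcnf1 was detected on 10 MGT and 0 lacZ arrays, with levels of -5.67 to -3.12 in MGT, against -8.46 to -6.20 in lacZ. MGT was at least 2.05-fold higher, for a gene that passed the detection filter through MGT groups alone. The measured difference was 3.26 (adjusted p = 7.7e-10), and it was 0.415 with dim levels raised to the highest array floor. Kcns3 was -4.57 to -3.10 in MGT (median -3.36) and -6.92 to -4.96 in lacZ (median -5.67), a difference of 2.21 ± 0.114 (SE, adjusted p = 1.74e-09). Neither gene's groups overlapped. Kcna1, a Shaker pore, was -4.59 to -3.50 in MGT and -7.22 to -4.80 in lacZ, detected there on 4 arrays, and rose by 1.68 ± 0.127 (SE, adjusted p = 8.9e-08).

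Among inward rectifiers Kcnj5, a pore of the acetylcholine-gated atrial channel, had the largest difference and was detected on every array. In MGT it read 2.20 and 2.23 on day 3, 2.63 and 2.65 on day 5, 2.83 and 2.75 on day 7, 2.15 and 1.99 on day 10, and 1.56 and 1.52 on day 14. In lacZ it read 0.04 and 0.07 on day 3, -0.51 and -0.57 on day 5, 0.16 and 0.19 on day 7, -0.28 and -0.97 on day 10, and -1.70 and -1.67 on day 14, with -0.89 and -0.94 on day 0. Both vectors were lower on day 14 than on day 7, with MGT above lacZ on each day. The averaged difference was 2.78 ± 0.067 (SE, adjusted p = 7.53e-13), a 6.85-fold difference, with 2.67 within slide 1 and 2.66 within slide 2. Kcnj3, its atrial partner, was detected on 5 MGT and 0 lacZ arrays. On day 7 it read -5.24 and -5.17 in MGT, against -7.87 and -8.47 in lacZ, and MGT was at least 1.56-fold higher (measured difference, adjusted p = 9.65e-05). The averaged difference of 1.11 ± 0.184 (SE, adjusted p = 0.000171) was not past the threshold within slide 1 (0.14, adjusted p = 0.753) and was 0.0 with dim levels raised to the highest array floor.

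**Figure D2:**
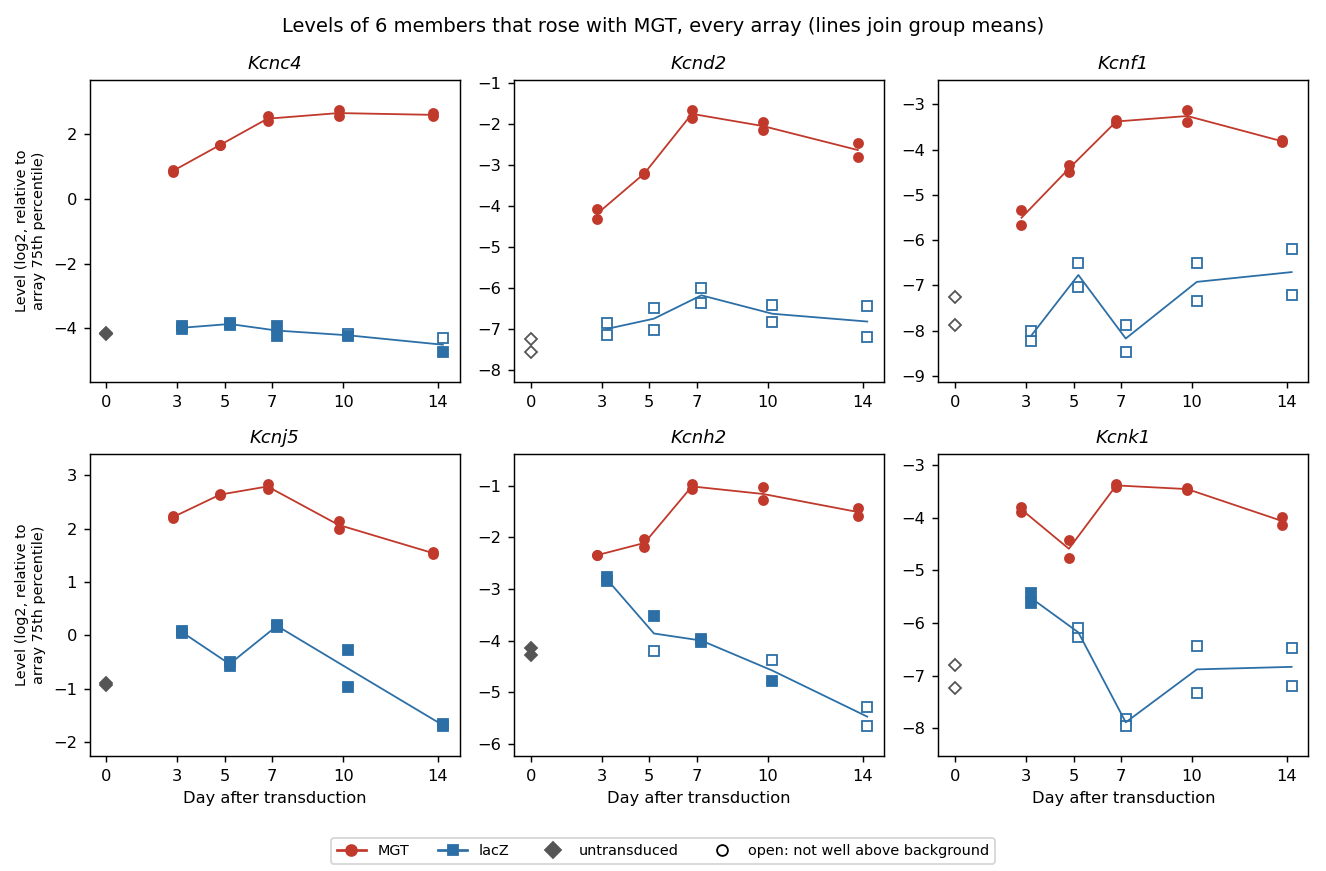
Level of 6 rising members on every array (log2 relative to the 75th percentile of the array) against day, with MGT in red, lacZ in blue and untransduced arrays in grey. Open symbols are not well above background, and lines join group means. MGT means lie above lacZ means on each day in all 6 panels, and every lacZ symbol of Kcnd2 and Kcnf1 is open.

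Kcnj10, an inward rectifier known from glia, was -3.14 to 1.10 in MGT (median -1.07) and -3.82 to -0.44 in lacZ (median -2.57), with overlap. It rose by 1.23 ± 0.189 (SE, adjusted p = 8.49e-05) and passed on days 7, 10 and 14. Markers of Schwann cells and glia were higher in 2 and lower in 1 of 5 (summed level 0.550 to 1.48 in MGT and 0.836 to 2.25 in lacZ), and their part was not tested. The pores of ATP-sensitive channels were dim. Kcnj8 was detected on 5 MGT arrays and 1 lacZ array and rose by 1.00 ± 0.188 (SE, adjusted p = 0.000462). With dim levels raised to the highest array floor, the Kcnj8 difference was 0.0. Kcnj11 was detected on 2 MGT and 0 lacZ arrays and gave 0.08 ± 0.167 (SE, adjusted p = 0.727).

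Kcnj15 and Kcnj14, less studied inward rectifiers, fell. Kcnj15 was -0.85 to 0.39 in MGT (median 0.14) and 1.10 to 1.84 in lacZ (median 1.46), with 0.07 and -0.05 on day 0. The lacZ arrays all lay above day 0, and MGT arrays lay on both sides of it. The difference was -1.48 ± 0.044 (SE, adjusted p = 6.63e-12), a 2.80-fold lower level in MGT. Kcnj14 was detected on 0 MGT and 3 lacZ arrays by the probe used, with 1 MGT array of day 14 detected by another probe. On day 3 MGT was at least 2.40-fold lower (measured difference, adjusted p = 0.00453). That call was lost in the authors' deposited table. The day 3 difference ran from -2.255 to -1.356 with 1 array left out and was as small as -0.028 over the alternatives. The averaged difference was -1.28 ± 0.176 as measured (SE, adjusted p = 3.18e-05), and -0.006 with levels below the highest array floor raised to it.

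Tandem-pore channels carry the background leak. Kcnk1 was -4.76 to -3.37 in MGT, detected on 10 arrays, and -7.96 to -5.42 in lacZ, detected on 2. It rose by 2.79 ± 0.120 (SE, adjusted p = 2.63e-10), and on day 7 MGT was at least 5.51-fold higher. Kcnk3, an acid-sensitive leak channel, was detected on 9 MGT and 4 lacZ arrays and rose by 0.98 ± 0.088 (SE, adjusted p = 5.63e-07). With dim levels raised to the highest array floor, the Kcnk3 difference was 0.0. Of the 4 tandem-pore members that were lower, Kcnk5 had the largest difference (-0.52 ± 0.140, SE, adjusted p = 0.00586).

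The auxiliary subunit Kcnab1, a cytoplasmic beta subunit that speeds inactivation of Shaker pores, had the largest fall. In MGT it read 1.30 and 1.34 on day 3, 0.28 and 0.46 on day 5, 0.66 and 1.08 on day 7, 1.14 and 1.27 on day 10, and 0.94 and 0.96 on day 14. In lacZ it read 3.18 and 3.28 on day 3, 3.05 and 3.10 on day 5, 3.45 and 3.56 on day 7, 3.52 and 3.37 on day 10, and 3.13 and 3.12 on day 14, with 0.59 and 0.50 on day 0. The lacZ arrays stood above day 0 by more than 2 units from day 3 on, whereas MGT arrays stayed within 1 unit of it. The averaged difference was -2.33 ± 0.051 (SE, adjusted p = 3.17e-13), a 5.04-fold lower level in MGT. Kcnmb4, a beta subunit of the large-conductance calcium-activated channel, was -0.83 to 0.61 in MGT (median -0.14) and -2.15 to -1.21 in lacZ (median -1.67). It rose by 1.60 ± 0.067 (SE, adjusted p = 2.04e-10), with no overlap.

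Kcnip2, the calcium-binding subunit of cardiac Shal channels, was detected on 4 MGT and 2 lacZ arrays and gave -0.05 ± 0.245 (SE, adjusted p = 0.873). Kcnip4, of the same family, was detected on 0 MGT and 4 lacZ arrays by the probe used, with 1 MGT array of day 14 detected by another probe, and fell by 2.26 on the log2 scale (adjusted p = 3.53e-07). On days 3 and 7 MGT was at least 1.80-fold and 2.22-fold lower. In the fit of the authors' deposited table Kcnip4 did not pass on day 3 (adjusted p = 0.811) or day 7 (adjusted p = 0.437), and with levels below the highest array floor raised to it its averaged difference was -0.01. Kcnab3, a beta subunit, was detected on 9 MGT and 0 lacZ arrays. It rose by 1.08 ± 0.162 (SE, adjusted p = 7.13e-05), at least 1.02-fold, and not past the threshold within slide 1 (adjusted p = 0.0961).

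Among calcium- and sodium-activated channels the sodium-activated pore Kcnt2 fell most, with -3.73 to -2.53 in MGT (median -3.44), against -2.22 to -1.58 in lacZ (median -1.72). The difference was -1.51 ± 0.151 (SE, adjusted p = 1.6e-06), a 2.84-fold lower level in MGT. Kcnma1, the large-conductance calcium-activated channel, was -5.00 to -4.27 in MGT and -4.47 to -3.20 in lacZ. Its difference of -0.57 ± 0.100 (SE, adjusted p = 0.00026) was not past the threshold within slide 1 (adjusted p = 0.209). Kcnc2, a Shaw pore, was detected on 0 MGT arrays and on 2 lacZ arrays, both of day 5 (-1.33 and -2.93), where MGT was at least 8.06-fold lower. Its averaged difference of -1.86 ± 0.234 (SE, adjusted p = 1.4e-05) did not pass within slide 2 (-0.43, adjusted p = 0.391) and was -0.41 with dim levels raised to the highest array floor. Kcnq1, the pore of the slow delayed rectifier, was -5.31 to -4.30 in MGT and -4.69 to -2.34 in lacZ and differed by -1.07 ± 0.212 (SE, adjusted p = 0.000716). It passed on day 3 alone (-2.02), and within slide 2 the adjusted p was 0.083.

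**Figure D3:**
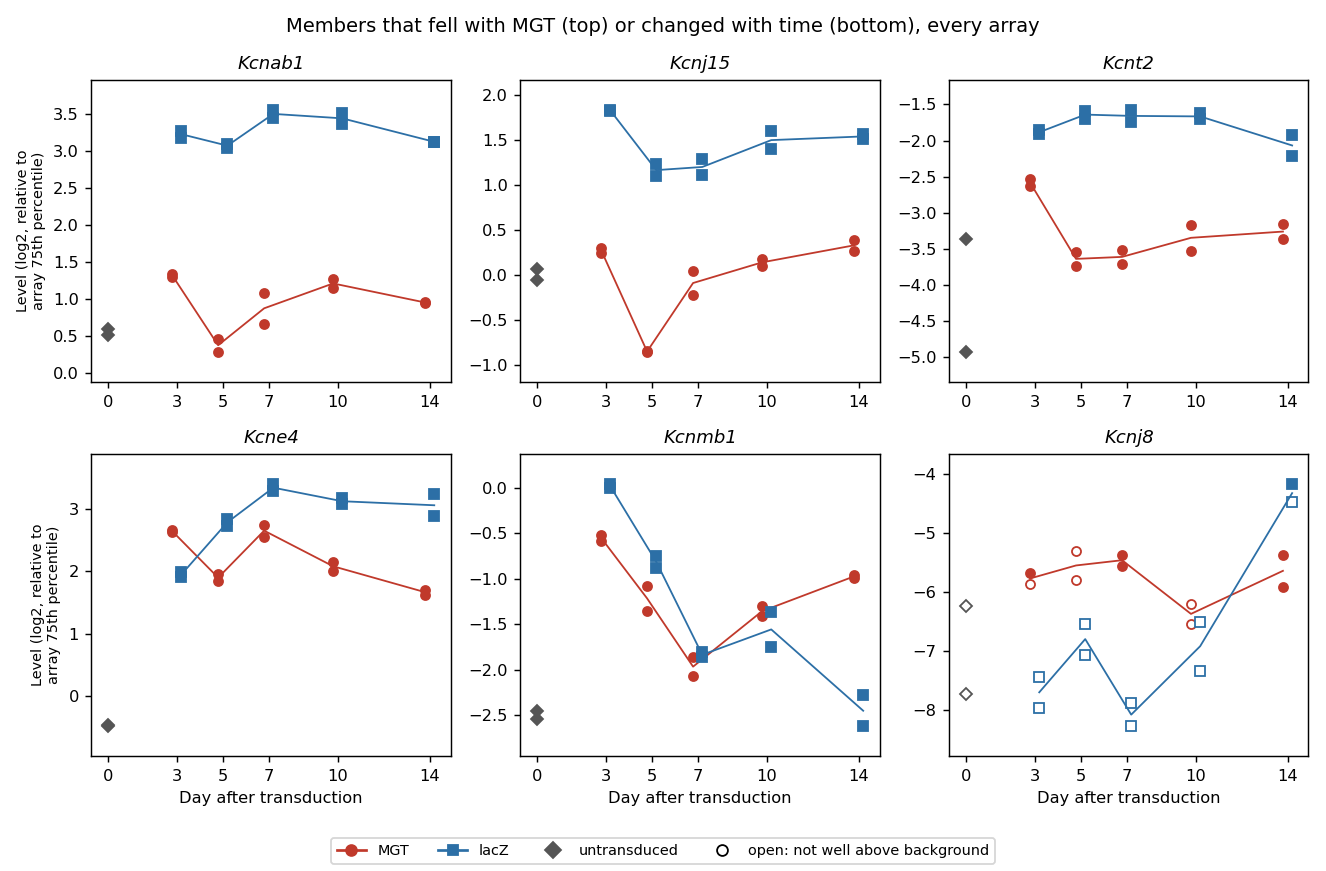
Level on every array (log2 relative to the 75th percentile of the array) against day for 3 falling members and 3 whose difference changed with time, with MGT in red, lacZ in blue and untransduced arrays in grey. Open symbols are not well above background, and lines join group means. MGT means lie below lacZ means on each day for Kcnab1, Kcnj15 and Kcnt2, and the order of the vectors turns between days 3 and 14 for Kcne4, Kcnmb1 and Kcnj8.

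A list of 18 channel genes of cardiac currents was described as a set. Of these 15 were tested, 8 were higher in MGT (among them Kcnd2, Kcnh2, Kcnj3 and Kcnj5), 4 were lower (Kcna4, Kcnd3, Kcnj4 and Kcnq1) and 3 did not pass (Kcnip2, Kcnj11 and Kcnj12), beside 22.2% higher and 35.6% lower among all genes. The median difference was 0.30, beside -0.07 over all genes. Kcnd2, Kcnj3 and Kcnj8 among the higher members, and the 3 that did not pass, met the detection filter through MGT groups alone. The counts and the median of this list are therefore not independent of the filter. Among the transient outward pores Kcnd2 rose while Kcnd3 and Kcna4 were lower. Both pores of the atrial acetylcholine-gated channel, Kcnj3 and Kcnj5, were higher, but Kcnj3 was detected on only 5 of the 10 MGT arrays. Its averaged difference was 0.0 with dim levels raised to the highest array floor. Kcna4 was 2.87 to 3.62 in MGT and 3.24 to 4.40 in lacZ, and 1 day 0 spot was an outlier and was left out of the fit. Its difference of -0.42 ± 0.113 (SE, adjusted p = 0.00678) was not past the threshold over days 3 to 10 (-0.31, adjusted p = 0.057), within either slide, or in the authors' deposited table. Kcnj4, of the resting current, differed by -0.61 ± 0.160 (SE, adjusted p = 0.00499) and Kcnj12 by 0.23 ± 0.371 (SE, adjusted p = 0.63).

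Genes outside the family that bind these channels, scaffold them or carry related currents were listed as well. Of 25 such genes 20 were tested, 6 were higher and 6 lower, with a median of 0.06, beside 22.2% higher, 35.6% lower and a median of -0.07 among all genes. The rises included the muscle caveolin Cav3 (2.40 ± 0.044, SE, adjusted p = 5.07e-14) and the channel-binding protein Amigo1 (0.83 ± 0.062, SE, adjusted p = 8.81e-08). The falls were led by the pump subunit Atp1b1 (-0.996 ± 0.049, adjusted p = 1.19e-09) and the transcription factor Irx3 (-0.95 ± 0.094, adjusted p = 1.37e-06).

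Day by day the counts were as follows. On day 3, 13 members were higher in MGT and 10 lower (9.56% and 12.9% of all genes), and on day 5, 16 were higher and 9 lower (14.2% and 16.8%). On day 7, 18 were higher and 10 lower (12.2% and 17.9%), on day 10, 16 and 12 (12.9% and 19.8%), and on day 14, 17 and 19 (17.5% and 26.0%). In all 9 members were higher on each day (Kcna1, Kcnc4, Kcnd2, Kcnf1, Kcnj5, Kcnk1, Kcnmb4, Kcnq5 and Kcns3, against 5.19% of all genes). Kcnab1 and Kcnj15 were lower on each day (5.27% of all genes), and 14 members passed on no day (37.7% of all genes).

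The difference between the vectors itself changed from day 3 to day 14 in 19 members, upward in 9 and downward in 10, against 10.3% and 12.6% of all genes. Quantile normalization gave 16 upward and 8 downward, with 3354 upward and 2528 downward among all genes, and normexp with quantile normalization gave 12 and 7, with 3282 and 2528. Among all genes the setting used here gave 2823 upward and 3459 downward. Kcnh2 changed most upward, with a difference of 0.46 on day 3 and 3.96 on day 14 (change 3.50 ± 0.274, SE, adjusted p = 2.57e-06). Kcnc4 widened by 2.26 ± 0.183 (SE, adjusted p = 3.35e-06), and Kcns3, Kcnc1 and Kcnd2 widened by 1.68, 1.51 and 1.37. The Kcns3 mean in MGT was -3.44 on day 3 and -3.28 on day 14. In lacZ it went from -5.1 to -6.62, where no array was detected, and the Kcns3 change was as low as 0.158 over the alternatives. Kcnd2 was detected on no lacZ array, so its change is set against levels not well above background. Kcnc1, a Shaw pore like Kcnc4, was -3.91 to -2.12 in MGT and -4.29 to -3.44 in lacZ, with differences of 1.58 on day 10 and 1.87 on day 14. Its change was lost when the probes of the gene were averaged (adjusted p = 0.0691). The Kcnd2 change was lost without lacZ day 3 replicate 2, MGT day 3 replicate 1 or MGT day 14 replicate 1, with adjusted p-values of up to 0.0823 over the alternatives.

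The order of the vectors turned in 5 members, against 2.93% of all genes. These were Kcna6, Kcne4, Kcnj8, Kcnmb1 and Kcnq3, the last named after its values were seen. Kcnq3 differed by -1.74 on day 3 and by 1.33 on day 7, when it was detected on no array of either vector. Kcna6 turned by its brightest probe alone, and its other probes were higher in MGT on each day. Kcne4, a single-span accessory subunit, read 2.62 and 2.66 in MGT on day 3, against 1.91 and 1.98 in lacZ. On day 14 it read 1.70 and 1.62 in MGT, against 3.23 and 2.88 in lacZ. The MGT arrays lay above lacZ on day 3 and below on day 14 (change -2.09 ± 0.150, SE, adjusted p = 1.22e-06). Kcnmb1, the beta subunit of the large-conductance channel in smooth muscle, ran in the opposite sense. It read -0.58 and -0.51 in MGT on day 3, against 0.04 and 0.00 in lacZ, and -0.96 and -0.99 in MGT on day 14, against -2.28 and -2.62 in lacZ (change 2.04 ± 0.197, SE, adjusted p = 1.47e-05). Smooth muscle and pericyte markers were higher in 2 and lower in 3 of 7 (summed level 495 to 668 in MGT and 471 to 692 in lacZ), and their part was not tested. Kcnj8 had the most negative change (-3.24 ± 0.594, SE, adjusted p = 0.002), on levels near background, with 1.93 on day 3 and -1.31 on day 14. In lacZ it was detected on no array of day 3 and on 1 of day 14. Over the alternatives the Kcnj8 change reached 0.0. Kcne3, another single-span subunit, changed by -2.31 ± 0.586 (SE, adjusted p = 0.0132), with -3.36 and -3.27 in MGT on day 14, against -1.36 and -1.78 in lacZ. Its second probe gave a change of -1.24 that did not pass in a limma fit of single probes (adjusted p = 0.251).

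Different probes of a gene did not always give the same difference. Of 18 members with more than 1 probe past the detection filter, 2 had probes called in opposite directions (Kcna6 and Kcnq5), and in 5 the averaged differences lay at least 1 apart (Kcna5, Kcna6, Kcna7, Kcnf1 and Kcnq5). Kcna7 is named after its values were seen. Kcna6, a Shaker pore, has 3 such probes, all placed on the minus strand of mm9. The brightest, at chr6:126686702-126686761, stood for the gene above and gave -0.31 ± 0.035 (SE, adjusted p = 6e-06). The probe at chr6:126658424-126658483 read 2.51 to 3.55 in MGT, against -4.11 to -2.43 in lacZ, and gave 6.44 ± 0.194 (SE, adjusted p = 8.83e-12). The probe at chr6:126686922-126686981 was detected on 10 MGT and 0 lacZ arrays and gave 4.16 ± 0.158 (SE, adjusted p = 9.11e-11). The sign of Kcna6 therefore depends on the probe. In a limma fit of the authors' deposited table, which holds 1 value per gene name and array, Kcna6 was 2.91 higher in MGT (adjusted p = 2.32e-13).

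Kcna5, a Shaker pore of a delayed rectifier, was split likewise. The brighter probe, at chr6:126483373-126483432, read -2.94 to -2.23 in MGT and -3.58 to -2.42 in lacZ, a difference of 0.30 ± 0.053 (SE, adjusted p = 0.000304) that did not pass within slide 1 (adjusted p = 0.0611). The other, at chr6:126482573-126482632, was detected on 10 MGT and 4 lacZ arrays and read -2.48 to -1.23 in MGT, against -6.48 to -4.55 in lacZ. Its groups did not overlap, and it gave 3.39 ± 0.231 (SE, adjusted p = 3.68e-08). These 2 probes lie at bases 2141 and 2941 of the same transcript. In the fit of the authors' deposited table Kcna5 was 1.38 higher (adjusted p = 6.04e-10). For Kcna7, also a Shaker pore, the probes gave -0.12 (adjusted p = 0.261) and 1.02 (adjusted p = 8.16e-07). The second Kcnq5 probe was detected on 0 MGT and 0 lacZ arrays.

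**Figure D4:**
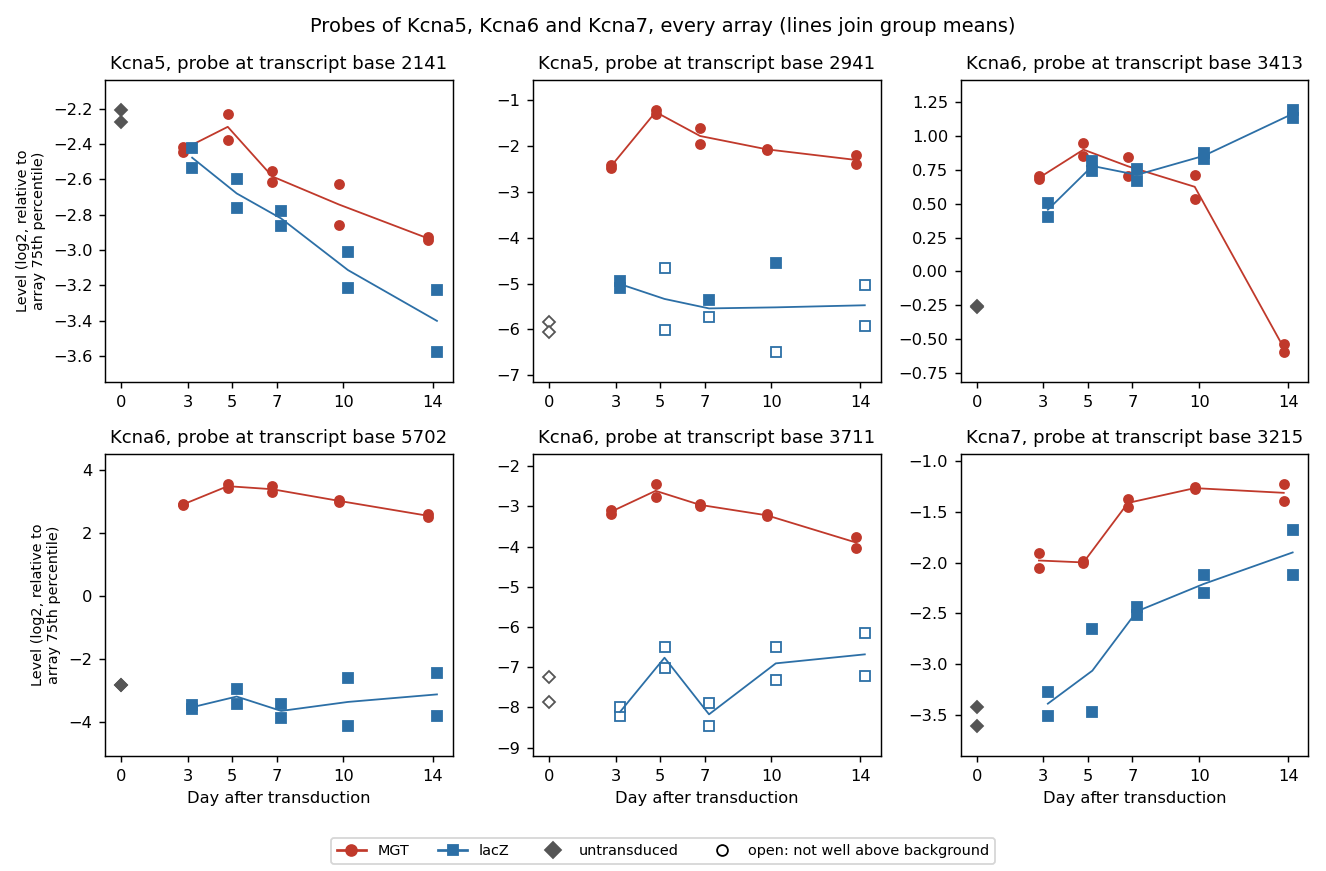
Level of single probes on every array (log2 relative to the 75th percentile of the array) against day for Kcna5, Kcna6 and Kcna7, with MGT in red, lacZ in blue and untransduced arrays in grey. Open symbols are not well above background, and lines join group means. The averaged MGT minus lacZ differences of the Kcna6 probes are -0.31, 6.44 and 4.16.

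Comparisons with untransduced day 0 cells show which channels moved in either vector. They share the 2 day 0 arrays, so their values are given side by side. In MGT day 3 cells 22 members were higher and 13 lower than on day 0 (26.8% and 27.8% of all genes), and in MGT day 14 cells 28 and 16 (29.9% and 33.9%). In lacZ day 3 cells 19 were higher and 10 lower (26.1% and 24.4%), and in lacZ day 14 cells 23 and 17 (32.7% and 30.4%). The lacZ day 14 arrays share a slide with day 0, and in the other comparisons with day 0 slide and group cannot be told apart.

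Kcnq5, a pore of the M-type current, had the largest fall from day 0 on day 14. It read -5.44 and -5.27 in MGT and -6.34 and -6.35 in lacZ, against -0.10 and -0.17 on day 0. The difference from day 0 was -5.22 ± 0.210 in MGT (SE, adjusted p = 1.5e-10), and lacZ was at least 23.0-fold lower (measured difference, adjusted p = 4.32e-11). Kcnk2, a mechanosensitive leak channel, read -4.83 and -4.71 in MGT and -4.51 and -4.78 in lacZ on day 14, against -1.13 and -1.18 on day 0. Its differences were -3.61 ± 0.173 in MGT and -3.49 ± 0.173 in lacZ (SE, adjusted p = 8.25e-10 and 1.51e-09). Kcnd3 gave -2.09 in MGT and -1.79 in lacZ on day 14. Kcnj14 and Kcnk5 were at least 1.61-fold and 2.45-fold lower in lacZ day 14 cells.

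Kcnj10 rose by 5.32 ± 0.422 in MGT and by 3.78 ± 0.422 in lacZ on day 14 (SE, adjusted p = 1.24e-07 and 4.14e-06). Kcnn4, the intermediate-conductance calcium-activated channel known from blood cells, rose by 3.55 ± 0.456 in MGT and by 3.45 ± 0.456 in lacZ on day 14 (SE, adjusted p = 1.42e-05 and 1.99e-05). The 2 lacZ arrays of day 10 read -3.00 and -0.83 for Kcnn4 and -3.21 and -1.39 for Kcnj10, so the second was higher for both. The summed level of 4 macrophage markers was 29.9 and 75.1 on those arrays. On day 14 it was 104 and 111 in MGT and 126 and 177 in lacZ, against 16.5 and 15.2 on day 0, and its part in these rises was not tested.

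Kcne4 rose by 2.13 in MGT and 3.52 in lacZ on day 14, and Kcne3 by 2.15 and 3.90. Kcnab1 was 0.40 ± 0.115 above day 0 in MGT and 2.58 ± 0.115 in lacZ (SE, adjusted p = 0.00751 and 5.37e-10). On day 3 the rises in MGT were led by Kcnc4 (5.02), Kcnj10 (3.45), Kcnd2 (at least 2.15-fold) and Kcnk1 (at least 2.73-fold). Those in lacZ were led by Kcnab1 (2.69), Kcnip4 (at least 1.24-fold), Kcnq1 (2.54) and Kcnmb1 (2.51). The Kcnip4 rise did not pass in the fit of the authors' deposited table (adjusted p = 0.278). By day 14 Kcnc4 stood 6.76 ± 0.130 above day 0 in MGT (SE, adjusted p = 2.17e-13) and differed by -0.35 ± 0.130 in lacZ (SE, adjusted p = 0.0321).

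**Figure D5:**
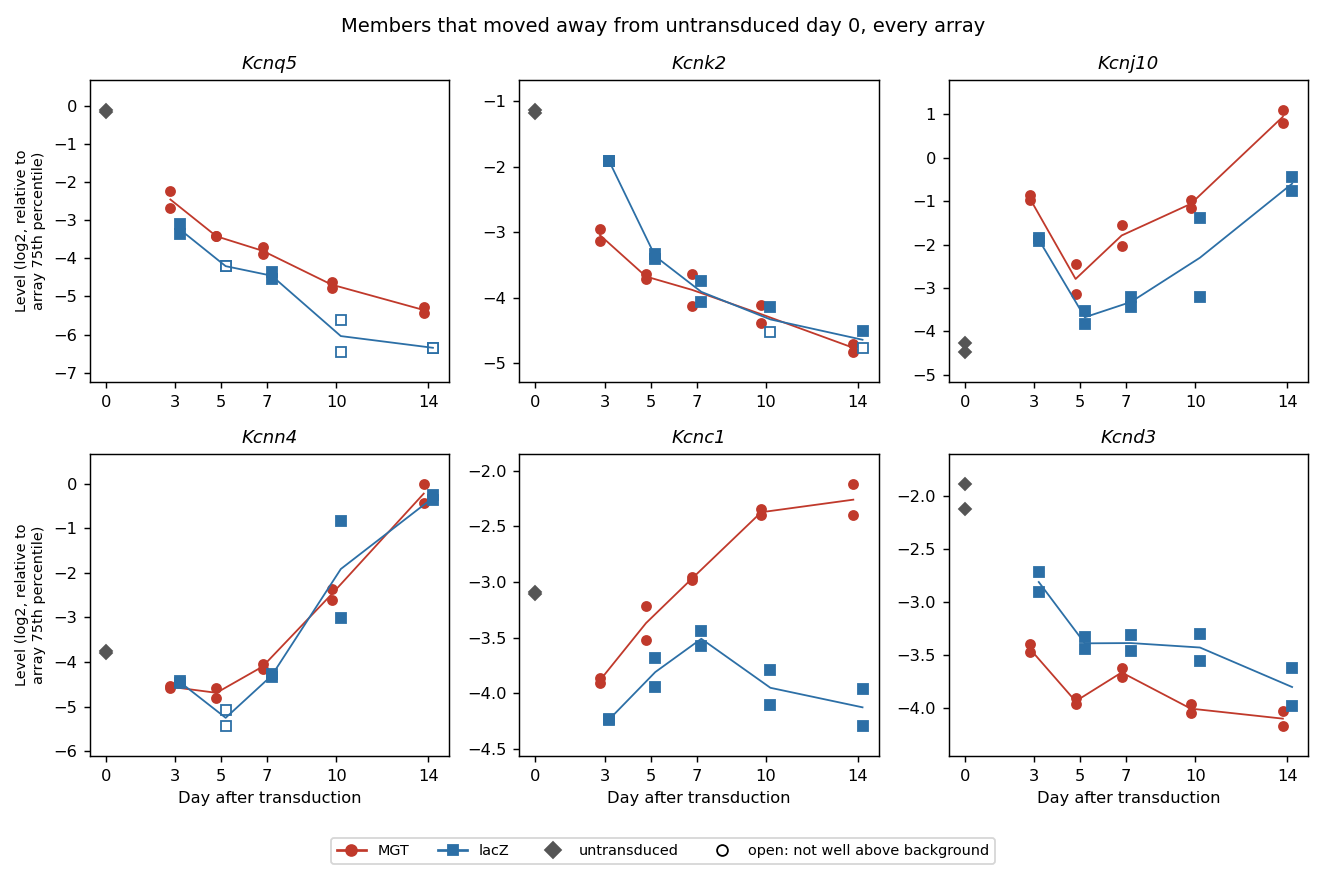
Level on every array (log2 relative to the 75th percentile of the array) against day for 6 members that moved away from day 0, with MGT in red, lacZ in blue and untransduced arrays in grey. Open symbols are not well above background, and lines join group means. Kcnq5, Kcnk2 and Kcnd3 lie below day 0 in both vectors, and Kcnj10 lies above it.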

How the data were processed

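The deposited scanner files hold 1-colour Cy3 intensities of 22 Agilent mouse arrays, made with Feature Extraction 10.7.3.1 on an mm9 design, per the file headers. The authors' deposited table gives normalized intensities of 34378 gene names on a linear scale, and the submitters' processing notes name limma. Here the processed intensity, already background-subtracted, was put on the log2 scale relative to the 75th percentile of each array (control spots excluded), with outlier spots left out and spots of a probe averaged. A probe was kept where some group had both of its arrays well above background (38800 of 55681), and the brightest on average stood for its gene (27529 genes). limma 3.58.1 in R 4.3.3 fitted 11 group means, with Benjamini-Hochberg adjustment and a threshold of 0.05, and the fit was tested on simulated data. Where a group was not well above background on any array, a fold change is given as a bound. An adjusted p printed beside a bound is that of the measured difference, and the bound itself was not tested. The number of arrays limits the precision.

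Samples were grouped by their labels. Members named are those that differ by at least 1 on average, the cardiac list, the leading changes over time, per day and against day 0, and the leading members of each class. The members, lists and rules were chosen with earlier results of these data known. Replicate 1 deviations from the group means correlated between -0.075 and 0.118 over 55 pairs of groups, so the replicate numbers do not pair the samples. Promoter sequences are RefSeq's on GRCm38.p6. Alternatives covered scaling, background correction, the probe filter and choice, the replicate block, slides, a common floor and each array left out. Results for some genes are not reported here.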

Additional observations from a re-analysis of the deposited data

Results flagged for a closer look

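Each value here is the change of the MGT minus lacZ difference from day 3 to day 14, singled out because the effect of the vector differed between these days by a limma test of the change itself. Day 14 arrays of the vectors lie on different slides, so slide and vector cannot be told apart in any of them.

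Upward changes were found in 9 members. They were 3.50 for Kcnh2, 2.26 for Kcnc4, 2.04 for Kcnmb1, 1.68 for Kcns3 and 1.51 for Kcnc1. Kcnd2 followed with 1.37, Kcnk3 with 1.26, Kcnj5 with 1.07 and Kcnk2 with 1.01. Kcnh2, Kcns3, Kcnd2 and Kcnk3 were detected on no lacZ day 14 array, so their changes rest on lacZ levels not well above background. Kcnk2 differed by -1.13 on day 3 and -0.12 on day 14, so its change is the loss of an early difference.

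Downward changes are given for 8 members. They were -3.24 for Kcnj8 (on levels near background), -2.31 for Kcne3, -2.09 for Kcne4, -1.96 for Kcna6 (by its brightest probe) and -1.26 for Kcnma1. Kcnmb4 followed with -1.03, Kcnk15 with -0.99 and Kcnd1 with -0.65. In a limma fit of single probes, the second probe did not pass for Kcnmb4 (-0.50, adjusted p = 0.402) or Kcnd1 (-0.36, adjusted p = 0.649). The second probe of Kcne3 did not pass either (-1.24, adjusted p = 0.251). In that fit the brightest Kcnd1 probe had an adjusted p of 0.0544. Kcnmb4 was higher in MGT on both days (1.63 on day 3 and 0.60 on day 14). The Kcnma1 change was lost without MGT day 14 replicate 2 (adjusted p = 0.0593), in the fit of the authors' deposited table (adjusted p = 0.14), with the mean of the kept probes (adjusted p = 0.0838) and with only the arrays of the comparison (adjusted p = 0.0777). The Kcne3 change was lost with only the arrays of the comparison (adjusted p = 0.0807).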

How the results depend on the processing

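Counts that an alternative moved by over 1.5 times come first. Shares over all genes are not given beside most counts of this section. The counts therefore show how calls depend on the processing and are not results about the members. With probes detected on all 22 arrays only (28 members), the averaged counts were 6 higher and 15 lower, those of day 3 were 5 higher and 4 lower, and there were 5 higher on day 5, 4 on day 7, 5 on day 10 and 6 on day 14. The change gave 3 upward, lacZ day 3 against day 0 gave 5 lower, lacZ day 14 gave 13 higher and 6 lower, MGT day 3 gave 4 lower, and MGT day 14 gave 12 higher and 7 lower. Calls in all were 21 averaged, 66 over the days, 10 for the change and 76 against day 0, fewer because fewer genes were tested. Within slide 1 there were 13 lower and within slide 2 15 lower. The authors' deposited table gave 6 lower of 91 members on day 3, and 2384 lower of 34378 among all genes. A fit of only the arrays of the comparison gave 5 lower on day 10, 7 lower on day 14, 6 downward changes and 14 higher for lacZ day 14 against day 0. With no filter on dim probes there were 30 lower on day 14, 17 downward changes and 25 lower for MGT day 14 against day 0. That setting also tests members that the filter left out, so these counts are not over the same 62 members. Quantile normalization gave 16 upward changes. The cause was not tested.

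With each array left out in turn, lower counts ran from 6 to 14 on day 5 (highest without lacZ day 14 replicate 1 or 2), 6 to 14 on day 7 (6 without MGT day 7 replicate 1), 9 to 19 on day 10 (19 without lacZ day 14 replicate 1 or 2) and 12 to 20 on day 14 (12 without MGT day 14 replicate 2). Downward changes ran from 7 to 17 (17 without lacZ day 14 replicate 1), and lower counts of lacZ day 3 against day 0 from 6 to 13 (6 without lacZ day 3 replicate 1). Averaged counts ran from 18 to 22 higher and 23 to 29 lower. The replicate block gave 19 higher and 23 lower averaged and changed no call of a named member.

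Of the values that turned sign, none had passed the test in the setting used here. Kcnip2 (-0.05) gave 0.028 with the percentile over probes detected on all arrays and -0.242 to 0.137 with 1 array left out. Kcnj12 (0.23) gave -0.015 with the common floor, -0.553 within slide 1, -0.074 over days 3 to 10 and -0.043 to 0.497 with 1 array left out. Kcnj11 (0.08) gave -0.397 with no filter, -0.239 within slide 1, -0.018 over days 3 to 10 and -0.035 to 0.185 with 1 array left out, and it passed the test with quantile normalization (0.404, adjusted p = 8.95e-06), with normexp and quantile normalization (0.135, adjusted p = 0.00712) and in the authors' deposited table (0.196, adjusted p = 0.0298). The common floor and days 3 to 10 were chosen after seeing the data. The slide as a random block was not run, since each group lies on 1 slide. Signal over background limits all members under the array floors.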
